A study of Drosophila melanogaster with 16 samples.

Results

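The genes described here are 8 fruit fly genes of the germ plasm and the germ cells, nos, osk, vas, gcl, aub, piwi, tud and ovo, followed across purified embryonic cells and whole embryos. They were chosen by name, as all probe sets that the platform annotation assigns to these symbols. All 8 were on the array, among 10844 genes read by probe sets with a single symbol, and they have 10 of its 14010 probe sets, because nos and ovo have 2 probe sets each. The platform annotation lists nos under its full name nanos, and its record was matched through the synonym. The similarly spelled gene Nos encodes nitric oxide synthase and was not included.

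In Drosophila the germ line is set aside by germ plasm, a specialised cytoplasm that the mother deposits at the posterior pole of the egg. Cells that form there, the pole cells, inherit its RNAs and proteins, and by stage 11 they have moved through the gut wall towards the gonads. Some germ plasm RNAs are held mainly in these cells after the early cleavages, whereas other genes of the set are also transcribed in somatic tissue.

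Total RNA was hybridised to Affymetrix Drosophila arrays, and came from embryos at stage 11. Sorted arrays read neuroectodermal cells marked by the membrane-bound fluorescent protein mCD8-GFP and captured with anti-mCD8 magnetic beads after dissociation. Whole arrays read intact embryos without this selection, and germ cells are not part of the neuroectoderm. The gcm embryos, labelled scagcm, overexpressed gcm, a transcription factor that starts glial fate, and the controls are described as wild type. The labels do not state which driver expressed gcm, and they give no age beyond the stage. The groups were sorted gcm, sorted control, whole gcm and whole control. Each was deposited as 4 arrays, but sorted gcm 2 and sorted gcm 3 held identical values in all 14010 probe sets and were counted as 1 array. This left 15 arrays, with 3 in the sorted gcm group and 4 in each of the others. Whether replicates are separate embryo collections is not stated, and the spread behind each p-value is that between arrays, which may be technical.

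The array labelled whole control 3 went against its label. Its intensity of gcm was 8763, a level of 13.10, and its level of the glial gene repo was 10.77. The level of repo was 10.95 ± 0.31 (SD, n = 3) in sorted gcm cells and 8.50 ± 0.41 (SD, n = 4) in sorted control cells. It was 8.10 ± 0.32 (SD, n = 4) in whole gcm embryos and 6.21 ± 0.10 (SD, n = 3) in the other whole controls. Across probe sets the array labelled whole control 3 correlated more with the sorted arrays, at a mean r of 0.931, than with the other whole embryo arrays, at 0.690. The sorted against whole differences of the members are therefore given over all 15 arrays and again over 14 arrays, without that array. Other values state the arrays they rest on. Without it the level of gcm, which checks the labels, was 13.07 ± 0.06 (SD, n = 3) in sorted gcm cells, 11.61 ± 0.35 (SD, n = 4) in sorted control cells, 10.73 ± 0.33 (SD, n = 4) in whole gcm embryos and 8.39 ± 0.30 (SD, n = 3) in whole control embryos. The deposited median intensity per array was 31.8 to 58.4, and the number of arrays limits the precision.

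A level is log2 of the quantile-normalised intensity plus 16, so a level of 5 corresponds to an intensity of 16, and values below it are near background. Differences are between mean levels, and they understate the change of a dim probe set. Levels of different probe sets are not comparable with each other. In these bulk samples, fewer cells of a type and less RNA per cell cannot be told apart.

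**Figure D1:**
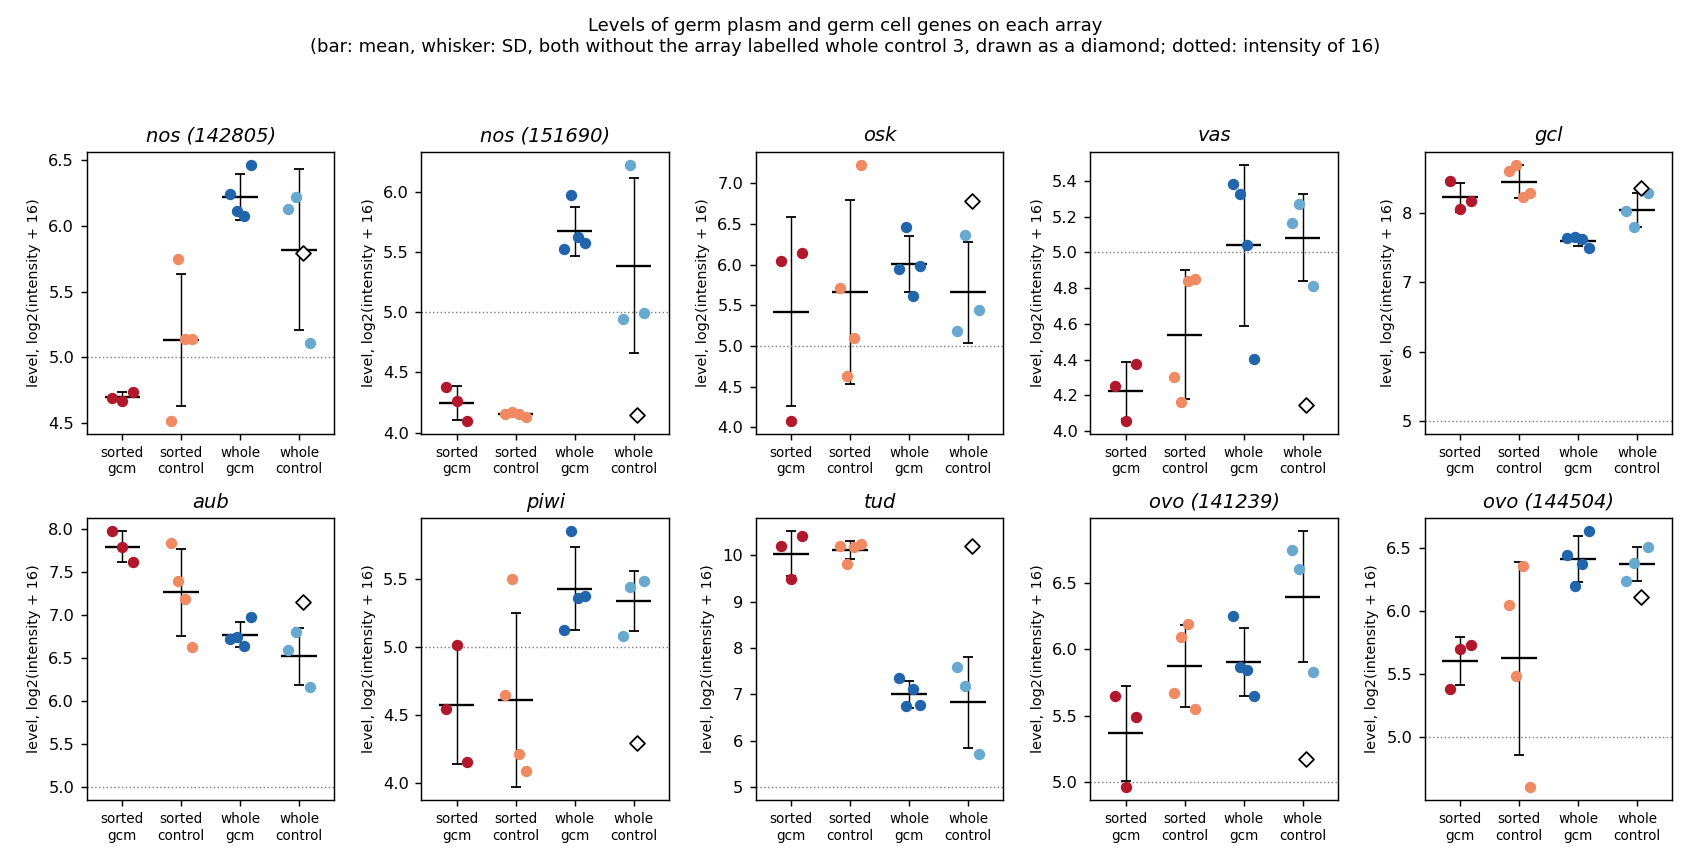
Level of each probe set, as log2 of the normalised intensity plus 16, on every array, with groups in the order sorted gcm, sorted control, whole gcm and whole control. Points are arrays, bars and whiskers are group means and SDs without the array labelled whole control 3, which is drawn as a diamond, and the dotted line marks an intensity of 16. All tud arrays of sorted cells lie above those of whole embryos other than the diamond, and all sorted arrays of nos probe set 151690_at lie below the dotted line.

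The comparison of sorted with whole samples bears on whether purified neuroectodermal cells retained germ cell RNA. The 8 genes did not move together. In gcm embryos both nos probe sets and vas were lower in sorted cells than in whole embryos, and tud, aub and gcl were higher, in both fits. osk passed the test in no comparison. The level of tud was 3.05 ± 0.34 (SE) log2 units higher in sorted gcm cells than in whole gcm embryos over 14 arrays, a fold of 8.28 in intensity plus 16. This was the widest difference of the 10 at that pseudocount, but with a pseudocount of 1 it was 3.21 for tud and -3.29 for nos 151690_at.

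Over all 15 arrays, 6 of the 10 probe sets had an adjusted p under 0.05 for sorted gcm against whole gcm (limma, Benjamini-Hochberg over 13966 probe sets), 3 higher and 3 lower. Of all probe sets tested, 36.9% passed, 19.5% higher and 17.4% lower. Over 14 arrays 8 of the 10 passed, 3 higher and 5 lower, against 45.6% of all probe sets, 24.7% higher and 20.9% lower. The median difference of the 10 was -0.70 over 14 arrays, against 0.06 for all probe sets. The arrays of the 2 groups did not overlap for 3 probe sets that were higher and 5 that were lower, against 27.3% and 23.4% of all probe sets. Large parts of the array thus changed with sorting in both directions, and whether the members' counts differ from those of all probe sets was not tested.

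In controls 2 of the 10 passed over all 15 arrays, tud higher and nos 151690_at lower, against 26.1% of all probe sets, 12.8% higher and 13.3% lower. Over 14 arrays 4 passed, tud, aub and gcl higher and nos 151690_at lower, against 46.4% of all probe sets, 24.9% higher and 21.4% lower. The median difference of the 10 was -0.53 over 14 arrays, against 0.07 for all probe sets. With all 15 arrays the groups overlapped for each of the 10, where 6.47% of all probe sets were apart and higher and 4.8% apart and lower. Without the array labelled whole control 3 they were apart for tud, higher, and nos 151690_at, lower, where 24.6% and 22.6% of all probe sets were apart.

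**Figure D2:**
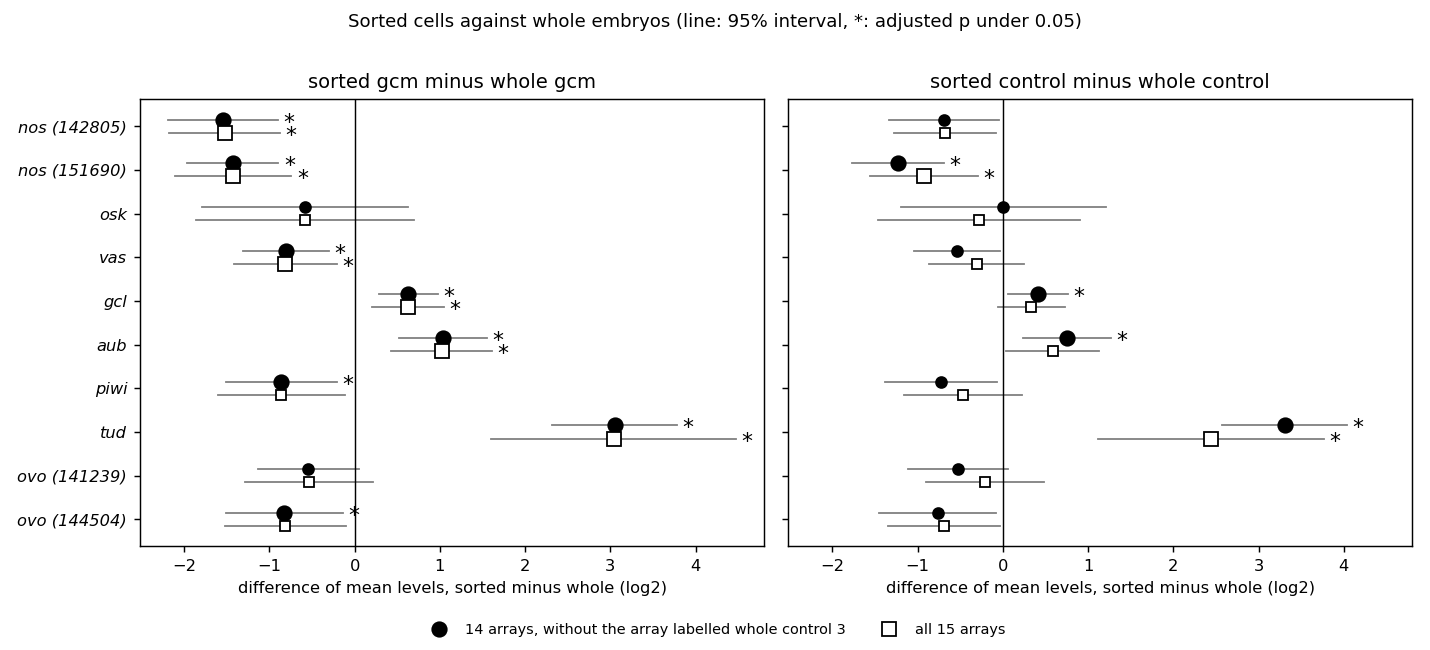
Differences of mean levels in log2, sorted minus whole, in gcm embryos and in controls for each probe set, with 95% intervals. Filled circles are the fit of 14 arrays without the array labelled whole control 3, open squares are the fit of all 15, and an asterisk marks an adjusted p under 0.05. tud lies near 3 in gcm embryos, both nos probe sets and vas lie below 0, and osk spans 0 in both panels.

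Among the genes that build germ plasm, osk encodes the protein that starts its assembly at the posterior pole. Its normalised intensity was 49.9, 0.88 and 54.7 on the sorted gcm arrays, and 36.4, 8.85, 18.1 and 134 on the sorted control arrays. It was 45.9, 72.1, 33.1 and 47.5 on the whole gcm arrays, and 20.2, 66.1, 94.3 and 27.6 on the whole control arrays, the third of these being the array labelled whole control 3. The sorted arrays held both the lowest and the highest value, and the groups overlapped throughout.

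The osk difference was -0.58 for sorted gcm minus whole gcm, with a 95% interval from -1.79 to 0.62 and an adjusted p of 0.431 over 14 arrays, and also -0.58 with an adjusted p of 0.474 over all 15. For sorted control minus whole control it was 0.01, with an interval from -1.20 to 1.21 and an adjusted p of 0.994 over 14 arrays, and -0.28 with an interval from -1.46 to 0.91 and an adjusted p of 0.750 over all 15. These intervals are too wide to show either a loss or a retention of osk RNA.

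vas encodes a DEAD-box RNA helicase of the germ plasm and a standard marker of germ cells at all stages. Its intensity was 3.04, 0.66 and 4.72 in sorted gcm cells, and 3.77, 1.90, 12.7 and 12.9 in sorted control cells. It was 25.7, 24.2, 17.0 and 5.17 in whole gcm embryos, and 19.9, 22.6, 1.73 and 12.1 in whole control embryos, where 1.73 belonged to the array labelled whole control 3. All 7 sorted arrays were below an intensity of 16, as were whole gcm 4, whole control 4 and the array labelled whole control 3.

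The level of vas was 4.23 ± 0.16 (SD, n = 3) in sorted gcm cells and 5.04 ± 0.45 (SD, n = 4) in whole gcm embryos. The difference was -0.81 in both fits, with an adjusted p of 0.0106 over 14 arrays and 0.0341 over all 15. The arrays of these groups did not overlap, although whole gcm 4, at 5.17, lay close to sorted gcm 4, at 4.72. Over 14 arrays the call remained without any one array, and over all 15 it was lost without any one of the sorted gcm arrays or of whole gcm 1, 2 and 3, with adjusted p-values of up to 0.106. In controls the difference was -0.54, with an interval from -1.05 to -0.04 and an adjusted p of 0.0748 over 14 arrays, and -0.31 with an adjusted p of 0.410 over all 15. With the values as deposited vas did pass in controls over 14 arrays, at -0.67 with an adjusted p of 0.0446. It did not over all 15, at -0.41 with 0.309, or with median centring over 14, at -0.25 with 0.377.

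tud encodes a protein with repeated Tudor domains, which bind methylated arginines of Aub and other proteins and anchor them in germ plasm. Its intensity was 1162, 702 and 1356 in sorted gcm cells, and 1173, 889, 1149 and 1196 in sorted control cells. It was 148, 91.4, 123 and 93.8 in whole gcm embryos, and 176, 129, 1173 and 36.4 in whole control embryos. The value of 1173 came from the array labelled whole control 3, and the other whole embryo arrays all lay below every sorted array.

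The intensity of tud averaged 1073 ± 336 (SD, n = 3) in sorted gcm cells and 114 ± 26.9 (SD, n = 4) in whole gcm embryos. The difference in level of 3.05, with an interval from 2.32 to 3.78 over 14 arrays, ranked 54 from the highest among the 13966 probe sets, with an adjusted p of 2.18e-06. It was 3.04 over all 15 arrays, with an adjusted p of 0.00317. In controls the difference was 3.31, with an interval from 2.57 to 4.04, a fold of 9.89 and a rank of 50 over 14 arrays, and 2.44 with an adjusted p of 0.0125 over all 15. The gene was thus far brighter in purified neuroectodermal cells than in whole embryos, opposite to vas and nos. Sorted arrays also had a higher log2 ratio of the 3′ to the 5′ actin control probe set, 1.74 ± 0.21 (SD, n = 7), against 0.88 ± 0.26 (SD, n = 7) on the whole arrays other than whole control 3, and those of the eIF-4a probe sets were 1.01 ± 0.12 and 1.10 ± 0.15 and those of the GAPDH probe sets -0.18 ± 0.45 and 0.71 ± 0.42 over the same arrays. The part of these in any difference was not tested.

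nos encodes a translational repressor whose RNA is localised to the posterior pole and which keeps germ cells from dividing and from taking somatic fates. For probe set 142805_at the intensity was 9.78, 9.41 and 10.6 in sorted gcm cells, and 6.83, 37.6, 19.2 and 19.2 in sorted control cells. It was 59.6, 53.2, 51.5 and 72.4 in whole gcm embryos, and 53.9, 58.4, 39.4 and 18.5 in whole control embryos, of which 39.4 belonged to the array labelled whole control 3. All sorted gcm arrays were near background and well apart from the whole gcm arrays, whereas sorted and whole controls overlapped.

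For probe set 151690_at the intensity was 4.75, 3.21 and 1.11 in sorted gcm cells, and 1.81, 2.0, 1.85 and 1.51 in sorted control cells. It was 29.9, 46.7, 33.4 and 31.6 in whole gcm embryos, and 14.7, 58.6, 1.73 and 15.9 in whole control embryos, with 1.73 on the array labelled whole control 3. All 7 sorted arrays lay below every whole embryo array except that one, in controls as in gcm embryos.

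In gcm embryos both probe sets were lower in sorted cells. The differences were -1.54, with an interval from -2.19 to -0.90 and an adjusted p of 0.000526, for 142805_at and -1.43, with an interval from -1.97 to -0.89 and an adjusted p of 0.000203, for 151690_at over 14 arrays. Their size depends on the pseudocount, because the sorted gcm arrays were all below 16. With a pseudocount of 1 they were -2.48 and -3.29, and with 64 they were -0.74 and -0.57, with an adjusted p under 0.05 in each case. Over all 15 arrays they were -1.53 and -1.43, with adjusted p-values of 0.00186 and 0.00344.

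In controls the 2 nos probe sets gave different calls. For 151690_at the difference was -1.23, with an adjusted p of 0.000742 over 14 arrays, and -0.92 with an adjusted p of 0.0339 over all 15. The call over all 15 arrays was lost without any one of the 4 sorted control arrays or without whole control 1, 2 or 4, and without whole control 2 the difference was -0.54. Without both that array and the array labelled whole control 3 it was -0.80, still with an adjusted p under 0.05. For 142805_at it was -0.69, with an interval from -1.34 to -0.05 and an adjusted p of 0.0729 over 14 arrays, and -0.68 with an adjusted p of 0.0878 over all 15. With the values as deposited 142805_at did pass, at -1.05 with an adjusted p of 0.0139 over 14 arrays and -0.96 with 0.0333 over all 15. Both were negative, and whether they differ from each other was not tested.

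gcl encodes a nuclear envelope protein that pole cells need to form and that also acts outside the germ line. Its intensity was 337, 251 and 273 in sorted gcm cells, and 377, 399, 285 and 296 in sorted control cells. It was 185, 185, 181 and 164 in whole gcm embryos, and 247, 207, 313 and 297 in whole control embryos, of which 313 was the array labelled whole control 3. The whole gcm arrays formed a narrow group below every other array.

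The gcl difference was 0.63 for sorted gcm minus whole gcm, a fold of 1.55, with an adjusted p of 0.00500 over 14 arrays and 0.0210 over all 15. With all 15 arrays the call was lost without sorted gcm 1, sorted gcm 4 or whole gcm 4. It was lost in both fits with median centring and with the values as deposited, where the difference was 0.31 and the adjusted p 0.302 over 14 arrays and 0.400 over all 15. In controls it was 0.42 with an adjusted p of 0.0497 over 14 arrays and 0.34 with an adjusted p of 0.188 over all 15. The control call over 14 arrays was lost without sorted gcm 4, sorted control 1 or 2, any whole gcm array, or whole control 1 or 2, and with the values as deposited the difference was -0.21 with an adjusted p of 0.499.

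aub and piwi encode Argonaute proteins of the piRNA pathway, in which short RNAs guide the silencing of transposons in the germ line. Aub is a germ plasm component, and Piwi acts in nuclei of germ cells and of somatic cells of the ovary. The genes are neighbours on chromosome arm 2L, with CG12253 and TTLL4A as the only protein-coding genes between them in the RefSeq annotation of assembly release 6. The sorted minus whole difference was positive for aub and negative for piwi, in gcm embryos and in controls, but not every difference passed the test. Both genes passed only in gcm embryos, in the fit without the array labelled whole control 3. The piwi call there depended on single arrays and on the processing.

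The intensity of aub was 235, 206 and 180 in sorted gcm cells, and 213, 152, 129 and 82.8 in sorted control cells. It was 89.6, 91.1, 83.6 and 110 in whole gcm embryos, and 80.2, 95.8, 126 and 55.5 in whole control embryos, where 126 belonged to the array labelled whole control 3. Every sorted gcm array exceeded every whole gcm array, and only 1 sorted control array, the fourth, fell within the range of the other whole controls.

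The level of aub was 7.79 ± 0.18 (SD, n = 3) in sorted gcm cells and 6.77 ± 0.14 (SD, n = 4) in whole gcm embryos. The difference was 1.03, a fold of 2.05, with an adjusted p of 0.00234 over 14 arrays, and 1.02 with an adjusted p of 0.0101 over all 15. With the values as deposited it was 0.68 and the call was lost, with an adjusted p of 0.0856 over 14 arrays and 0.120 over all 15. In controls the difference was 0.75 with an adjusted p of 0.0183 over 14 arrays, and 0.58 with an adjusted p of 0.107 over all 15. The control call over 14 arrays was lost without sorted control 1 or whole control 4, with median centring, with only the compared arrays in the fit, and with the values as deposited, where the difference was 0.10 and the adjusted p 0.826.

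The intensity of piwi was 7.35, 16.4 and 1.79 in sorted gcm cells, and 9.06, 29.3, 2.54 and 0.98 in sorted control cells. It was 18.9, 41.9, 25.2 and 25.6 in whole gcm embryos, and 17.9, 27.5, 3.65 and 28.9 in whole control embryos, with 3.65 on the array labelled whole control 3. All whole arrays but that one were above 16, and 5 of the 7 sorted arrays were below it. The difference was -0.86 for sorted gcm minus whole gcm, with an adjusted p of 0.0310 over 14 arrays and 0.0673 over all 15. The call over 14 arrays was lost without sorted gcm 1 or 4 or whole gcm 2 or 4. It was also lost with a pseudocount of 1, with median centring, and with a block for the replicate number that took the twice-deposited array as number 3. In controls the difference was -0.73, with an interval from -1.38 to -0.07 and an adjusted p of 0.0654 over 14 arrays, and -0.47 with an adjusted p of 0.308 over all 15. With the values as deposited piwi did pass in controls over 14 arrays, at -0.92 with an adjusted p of 0.0151. It did not over all 15, at -0.63 with 0.156, or with median centring over 14, at -0.49 with 0.173.

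ovo encodes zinc finger transcription factors that germ cells need, and the same locus makes the somatic shavenbaby transcripts, which direct the formation of epidermal denticles. The sources used here do not say which transcripts the 2 probe sets read. For 141239_at the intensity was 34.3, 15.2 and 28.9 in sorted gcm cells, and 35.0, 52.1, 56.9 and 31.0 in sorted control cells. It was 60.3, 42.4, 41.5 and 34.2 in whole gcm embryos, and 91.5, 81.4, 20.1 and 40.9 in whole control embryos, where 20.1 belonged to the array labelled whole control 3. The sorted gcm arrays overlapped with the whole gcm arrays, as 34.3 exceeded 34.2, and the difference was -0.54, with an interval from -1.13 to 0.05 and an adjusted p of 0.125 over 14 arrays, and -0.54 with 0.249 over all 15. In controls it was -0.53, with an interval from -1.12 to 0.06 and an adjusted p of 0.135 over 14 arrays, and -0.21 with 0.664 over all 15. With the values as deposited 141239_at did pass in controls over 14 arrays, at -1.05 with an adjusted p of 0.0138. It did not over all 15, at -0.67 with 0.213, or with median centring over 14, at -0.62 with 0.0623.

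For ovo probe set 144504_at the intensity was 25.8, 35.9 and 37.0 in sorted gcm cells, and 50.2, 28.9, 66.0 and 8.30 in sorted control cells. It was 71.3, 57.7, 66.8 and 83.5 in whole gcm embryos, and 59.6, 67.3, 53.2 and 75.2 in whole control embryos, where 53.2 was the array labelled whole control 3. In gcm embryos the difference was -0.82 with an adjusted p of 0.0481 over 14 arrays, and -0.81 with 0.0678 over all 15. The call over 14 arrays was lost without any one of the other arrays except sorted control 1, 3 and 4. In controls it was -0.76, with an interval from -1.45 to -0.07 and an adjusted p of 0.0656 over 14 arrays, and -0.69 with 0.111 over all 15. With the values as deposited 144504_at did pass in controls, at -1.19 with an adjusted p of 0.00455 over 14 arrays and -1.02 with 0.0269 over all 15. With median centring it passed over 14 arrays, at -0.77 with 0.0268, and not over all 15, at -0.67 with 0.0730.

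By order of mean level over 14 arrays, both whole embryo groups lay above both sorted groups for the nos, vas, piwi and ovo probe sets, and below both for tud, gcl and aub. For osk the order was whole gcm, sorted control, whole control and sorted gcm. Neighbouring groups in these orders overlapped, with 3 exceptions. Both whole groups were apart from both sorted groups for nos 151690_at and for tud, and whole gcm was apart from whole control for gcl.

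Overexpression of gcm was compared with controls within whole embryos and within sorted cells. No member passed the test in either comparison, in either fit. In whole embryos 0.0573% of all probe sets passed over all 15 arrays and 0.444% over 14, and in sorted cells 0.122% and 0.773%. In whole embryos 1 of the 10 probe sets, gcl, had an unadjusted limma p under 0.05 in each fit, where 11.2% of all probe sets had over all 15 arrays and 11.6% over 14. In sorted cells none of the 10 had over all 15 arrays, against 5.56% of all probe sets, and 1, aub, had over 14, against 10.6%.

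The gcl level in whole embryos was 7.61 ± 0.07 (SD, n = 4) with gcm and 8.04 ± 0.25 (SD, n = 3) in controls. The difference was -0.44, with an interval from -0.79 to -0.09 and an adjusted p of 0.265 over 14 arrays, and -0.52 with an adjusted p of 0.281 over all 15. The arrays did not overlap, which held in that direction for 2.99% of all probe sets over all 15 arrays and 6.97% over 14. The aub level in sorted cells was 7.79 ± 0.18 (SD, n = 3) with gcm and 7.26 ± 0.50 (SD, n = 4) in controls, a difference of 0.54 with an interval from 0.02 to 1.05 and an adjusted p of 0.448 over 14 arrays.

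The other differences between gcm and control samples over 14 arrays ran from -0.50 to 0.41 in whole embryos and from -0.51 to 0.09 in sorted cells. For tud the difference between sorted gcm and sorted control cells was -0.08, with an interval from -0.81 to 0.65, and for vas it was -0.31, with an interval from -0.81 to 0.20. The interaction, which asks whether sorting had a different effect in gcm embryos and in controls, passed for no member in either fit. It passed for 0.00716% of all probe sets over all 15 arrays and for 0.0286% over 14. In either fit 0 of the 10 had an unadjusted limma p under 0.05 for it. Of all probe sets 6.28% had over all 15 arrays and 10.5% over 14. For nos 142805_at, the member with the smallest interaction p over 14 arrays, it was -0.85, with an interval from -1.76 to 0.06 and an adjusted p of 0.518.

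**Figure D3:**
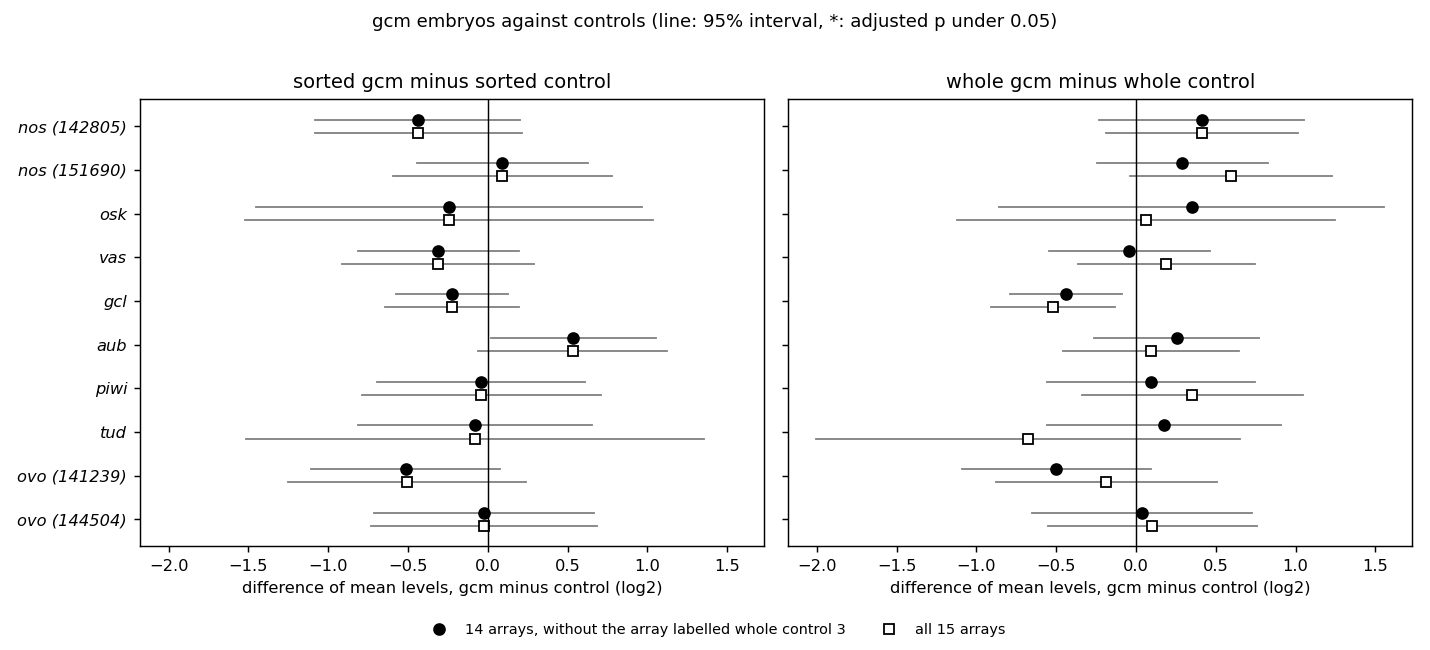
Differences of mean levels in log2, gcm minus control, in sorted cells and in whole embryos for each probe set, with 95% intervals, drawn from 14 arrays (filled circles) and all 15 (open squares). No probe set has an adjusted p under 0.05, and the intervals of gcl in whole embryos lie below 0.

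Other genes of the same processes were read from lists chosen by function, at the brightest probe set of each gene, and are given over 14 arrays unless stated otherwise. In these fits 24.7% of all probe sets were higher and 20.9% lower in sorted gcm cells, and 24.9% higher and 21.4% lower in sorted control cells. The list of germ plasm assembly and localised RNAs had 19 of 24 genes on the array. In sorted gcm cells against whole gcm embryos 5 were higher and 8 lower, with a median difference of -0.28, against 0.06 for all probe sets. Over all 15 arrays 3 were higher and 6 lower. Among the genes lower in both fits were smg, a repressor of maternal RNAs including that of nos, at -4.86, dhd, an egg thioredoxin, at -2.94, tsu, an exon junction subunit needed to localise osk RNA, at -2.16, CycB, whose RNA is localised to pole cells, at -1.80, vls, an arginine methylation cofactor, at -1.60, and me31B, an RNA helicase, at -1.56. Those higher in both were egl, stau and capu, with differences of 1.41, 1.24 and 1.22, which act in RNA transport and the cytoskeleton. pgc, whose small protein keeps transcription off in pole cells, differed by -0.22 with an adjusted p of 0.541. In controls 7 were higher and 6 lower, with a median of 0.08.

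The piRNA pathway list had 21 of 24 genes on the array. In gcm embryos 2 were higher and 9 lower in sorted cells, with a median of -0.27, and over all 15 arrays 2 and 8. Of all probe sets 24.7% were higher and 20.9% lower over 14 arrays. The Tudor domain gene tej had a difference of -2.89, the nuage gene squ -2.58, the Tudor domain gene BoYb -2.14, mael -1.91, and rhi, a chromatin protein of piRNA clusters, -1.84. cuff, which acts with rhi, had -1.54, the nuclease gene zuc -1.13, and the helicase gene spn-E -1.08, so these fell as nos, vas and piwi did. papi, a mitochondrial Tudor domain protein, had a difference of 1.15 and the cochaperone shu 0.75, in the direction of aub and tud. In controls 1 was higher and 6 lower, with a median of -0.28.

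Genes of germ cell migration and maintenance showed no common direction, with 3 of 11 measured genes higher and 2 lower in gcm embryos, against 24.7% and 20.9% of all probe sets. stwl, a chromatin protein of germline stem cells, had a difference of 1.56, and the gap junction gene zpg had 1.09, while slam had -1.05 and out, a germ cell migration gene, had -0.69. In controls 2 were higher, stwl and wun, and 1 was lower, slam. For the somatic gonad precursors, which surround the germ cells, 3 of 4 measured genes were higher and none lower in gcm embryos, where 24.7% of all probe sets were higher. These were zfh1 at 3.41, eya at 1.01 and Sox100B at 0.95, and zfh1 and eya are also used in the nervous system or mesoderm. In controls zfh1 and Sox100B were higher.

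Genes whose RNA is mainly laid down in the egg moved with the sorting too, and they overlap with the germ plasm list in dhd, exu and smg. In gcm embryos 9 of 13 were lower and 3 higher, with a median of -2.41, and in controls 6 were lower and 2 higher, with a median of -0.74. Of all probe sets 20.9% were lower in gcm embryos and 21.4% in controls. The summed intensity of the list was 343 to 373 in sorted gcm cells, 355 to 442 in sorted control cells, 1909 to 3849 in whole gcm embryos and 538 to 1640 in whole control embryos, with 450 on the array labelled whole control 3. Between whole gcm and whole control embryos 3 of the 13 passed, all higher with gcm, against 0.444% of all probe sets, and 4 of the 13 had a negative difference. The meiotic phosphatase gene twe was 2.16 higher with an adjusted p of 0.0296, the receptor gene tor 1.76 higher with 0.0147, and bcd 1.62 higher with 0.0200. Over all 15 arrays tor and twe passed and bcd did not. The part of egg RNA in the lower levels of nos, vas and piwi was not tested.

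**Figure D4:**
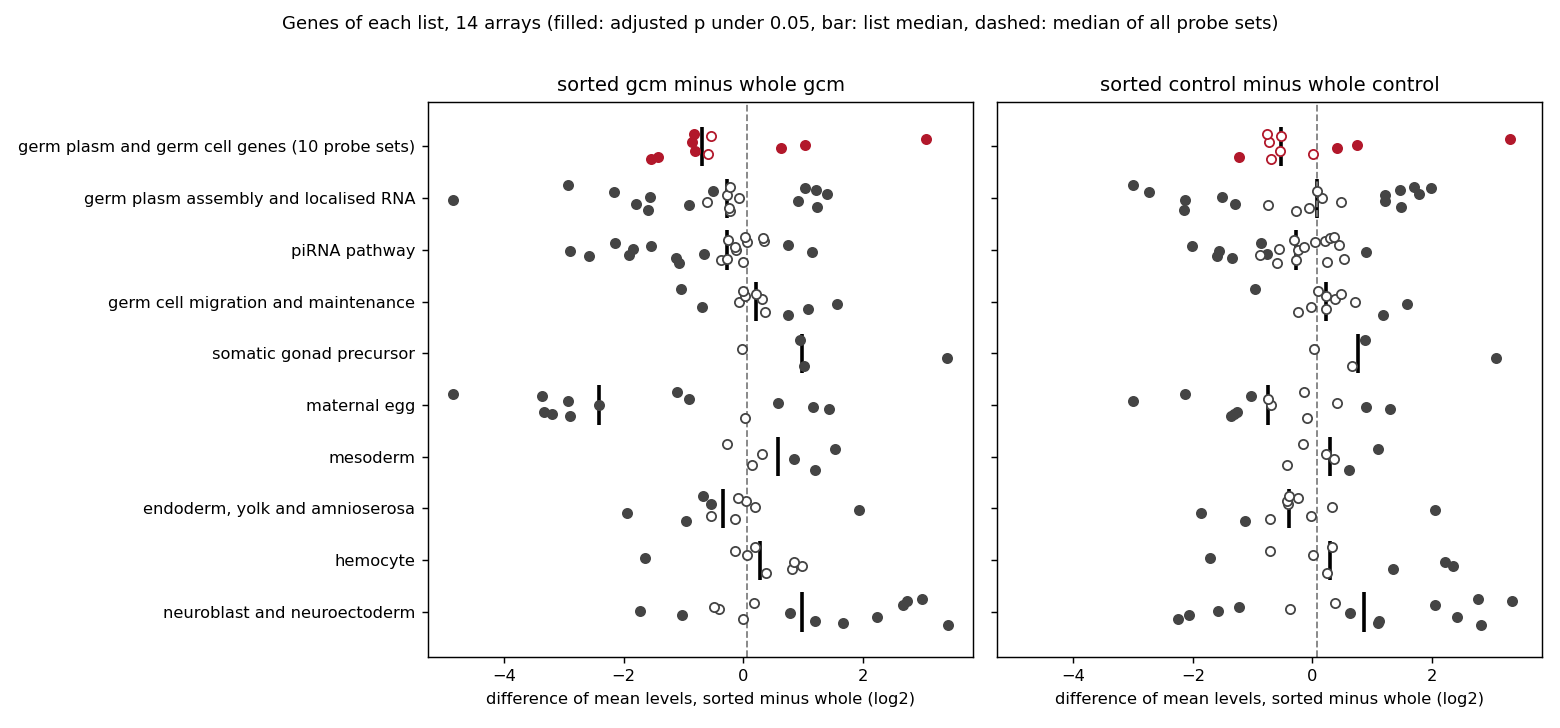
Differences of level in log2, sorted minus whole, for every measured gene of the 9 gene lists over 14 arrays, in gcm embryos and in controls. The top row, in red, holds the 10 probe sets described here, and every other point is a gene, filled where its adjusted p was under 0.05, bars are list medians and the dashed line is the median of all probe sets. The maternal egg list lies furthest to the left in gcm embryos, with a median of -2.41, and the neuroblast and neuroectoderm list reaches 3.43 to the right.

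Markers of the purified cells and of other tissues give the setting of these values. Beside the counts below, 24.7% of all probe sets were higher and 20.9% lower in sorted gcm cells. In sorted control cells 24.9% were higher and 21.4% lower. Of 14 measured neuroblast and neuroectoderm genes 8 were higher and 2 lower in sorted gcm cells, and in controls 8 were higher and 4 lower. Among those higher in sorted gcm cells were wor at 3.43 and the neuronal gene elav at 2.99. The list did not move as a whole, as 5 of the 14 differences were negative in each comparison. The differences ran from -1.72 to 3.43 in gcm embryos and from -2.25 to 3.33 in controls. The summed intensity of the list was 11054 to 14050 in sorted gcm cells, 10889 to 16252 in sorted control cells, 2895 to 4999 in whole gcm embryos and 3353 to 5055 in whole control embryos, with 11547 on the array labelled whole control 3. Other tissues were not uniformly lower. In gcm embryos 3 of 6 mesoderm genes were higher and none lower, with lmd at 1.53 and twi at 1.20. Of 10 endoderm, yolk and amnioserosa genes 1 was higher, peb at 1.93, and 4 were lower, including Ance at -1.94. Of 8 hemocyte genes none was higher and crq was lower at -1.64, and srp and ush are on both this list and the endoderm, yolk and amnioserosa list. In controls 2 mesoderm genes were higher and none lower, and 1 endoderm, yolk and amnioserosa gene was higher and 2 lower. Of the hemocyte genes in controls 3 were higher, the collagen genes Col4a1 at 2.34 and vkg at 2.22 and Hml at 1.35, and crq was lower at -1.71, while over all 15 arrays only Col4a1 was higher, at 1.90. The summed intensity of the hemocyte list varied widely between sorted control arrays, from 567 to 3369. It was 415 to 701 in whole control embryos, with 887 on the array labelled whole control 3.

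For each member the 3 genes whose levels were most like it were taken by Pearson correlation over the 15 arrays, at the brightest probe set of the member. The points are the same arrays, sorted and whole, for every gene, and the correlations are given as a description. For tud they were Nrg, with r = 0.995, NAT1, with 0.991, and CG7065, with 0.990. For gcl they were CG6479, pyd3 and meru, with 0.929, 0.912 and 0.911. For aub they were FoxL1, dpr19 and CG7376, with 0.931, 0.920 and 0.918.

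The probe sets of nos, vas, piwi and ovo had lower mean levels in both sorted groups than in both whole groups, though not every difference passed the test. Of these, nos 142805_at was most like mask, CanB2 and sli, with 0.905, 0.903 and 0.895. vas was most like Pepck1, grh and CG15594, with 0.853, 0.849 and 0.849. piwi was most like Vti1a, sws and Syt7, with 0.933, 0.920 and 0.917, and ovo 144504_at was most like CG1440, Rich and CG14220, with 0.928, 0.910 and 0.905. osk had the lowest values, with 0.842 for Irbp, 0.819 for CG6276 and 0.788 for Tom7. None of these genes is another member of the 8. Without the array labelled whole control 3 the correlations of the same pairs ran from 0.774, for osk with Tom7, to 0.995, for tud with Nrg.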

How the data were processed

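The deposited table of 16 arrays holds a linear intensity for each probe set, as judged from the values. The steps by which the authors made these intensities are not given in the sources used here. Groups were taken from the sample titles, and the identical arrays sorted gcm 2 and 3 were entered once. Intensities were quantile normalised over the arrays of each fit, 16 was added and log2 taken, with no filter on dim probe sets. Values given per array come from the normalisation of all 15 arrays, and the fit of 14 arrays was normalised anew. After 44 control probe sets were left out, 13966 remained, of which 12443 had 1 gene symbol, 327 several and 1196 none. The platform annotation can be old. For vas its gene identifier differed from that of the reference table, and the gene was matched by symbol.

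Group means were fitted to all arrays in R 4.3.3 with limma 3.58.1, with moderated variances and an intensity trend. Tests were two-sided, with p-values adjusted by the Benjamini-Hochberg method over all probe sets, and an adjusted p under 0.05 is a call. The 95% intervals are of single probe sets and are not adjusted. The comparisons were sorted gcm with whole gcm, sorted control with whole control, gcm with control in whole embryos and in sorted cells, and the interaction. The procedure was tested on simulated data.

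The members and lists were chosen with earlier results of these data known. Named genes are every member, gcm and repo as a check of the labels, from each list the called genes and up to 4 others with the smallest p in gcm embryos, of which the text gives a part, and for each member the 3 genes of highest correlation. The alternatives were other pseudocounts (1 and 64), the deposited scale, median centring, removal of the dimmest 40% of probe sets, a fit without the trend, array weights, a fit of the compared groups alone, a block for the replicate number, and omission of each array. Combining each with the omission of the array labelled whole control 3 was added after seeing the data. Equal replicate numbers deviated together, with residual correlations of 0.202 to 0.343, for whole gcm with whole control over 14 arrays, against -0.287 to 0.290 for other pairings. For sorted gcm with sorted control same-numbered pairs had 0.037 to 0.218, against -0.176 to 0.085, with the twice-deposited array as number 2. With it as number 3 they had -0.043 to 0.119, against -0.176 to 0.218. For sorted with whole arrays over 14 arrays same-numbered pairs had -0.058 to 0.122, against -0.138 to 0.116. With the array labelled whole control 3 included, those of sorted control with whole control had -0.054 to 0.321, against -0.294 to 0.270.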

Additional observations from a re-analysis of the deposited data

Results flagged for a closer look

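The tud value of sorted control 2 stood apart from the other sorted control arrays. Its level was 9.82, below the nearest at 10.19 and the highest at 10.24, and the gap took a share of 0.866 of the group's range, above Dixon's critical value for 4 samples. Of 30 groups of 4 arrays tested this was 1, and chance flags about 1 in 20. The array still lay above every whole embryo array other than the array labelled whole control 3.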

How the results depend on the processing

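Of 12 member differences called over all 15 arrays, over 14 or in both, 11 had the same sign under every alternative run of the fits that called them. In 3 the call held in both fits under every alternative, namely both nos probe sets and tud for sorted gcm minus whole gcm. The exception in sign was gcl for sorted control minus whole control over 14 arrays, which was -0.21 with the values as deposited (adjusted p 0.499), and the cause was not tested. The number of the 10 probe sets called for sorted gcm against whole gcm over all 15 arrays was 6, and ran from 4 to 8 with 1 array left out. Over 14 arrays it was 8, ran from 6 to 8 with 1 array left out, and was 5 without the dimmest 40% of probe sets, which leaves out dim members. For sorted control against whole control over all 15 arrays it was 2, and ran from 1 to 4 with 1 array left out, being 4 without the array labelled whole control 3. It was 1 with a pseudocount of 64, with median centring or without the dimmest 40%, 4 with the values as deposited, 7 with array weights and 0 with only the arrays of the groups compared, a fit with fewer arrays. Over 14 arrays it was 4, ran from 3 to 6 with 1 array left out, and was 7 with the values as deposited or array weights and 2 with only the arrays of the groups compared. For whole gcm against whole control it was 0 in both fits, 1 with array weights in each, and 0 to 1 with 1 array left out of all 15, where nos 151690_at passed at 0.95 (adjusted p 0.0339) without whole control 2. It stayed at 0 for sorted gcm against sorted control and for the interaction under every alternative run. The interaction has no separate fit of only the groups compared.

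With the replicate number as a block, and the array deposited as sorted gcm 2 and 3 entered as number 2 or 3, the counts for sorted gcm against whole gcm were 7 and 5 over all 15 arrays and 7 and 6 over 14. For sorted control against whole control they were 2 and 2, and 4 and 5, and they were 0 in the other comparisons. The block changed no call for whole gcm against whole control, the comparison with the highest correlations of same-numbered pairs over 14 arrays.

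Scaling moved the median of all probe sets for sorted control minus whole control, which was 0.07 over 14 arrays with quantile normalisation, -0.16 as deposited and 0.27 with median centring. Relative to that median the gcl difference as deposited was close to 0. The signal of vas, nos 151690_at and piwi was near background in sorted cells, where their differences depend on the pseudocount, and osk spread too widely between arrays for a difference of its size to be detected.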
